A study of Drosophila melanogaster with 12 samples.

Results

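The 6 midgut arrays of this Drosophila melanogaster series compare 3 glucose-fed samples with 3 samples kept on the unmodified diet, out of 12 arrays in all. They were taken by their tissue and diet labels, and all 18769 probe sets that are not array controls were tested, of which 13647 carry 1 gene symbol, for 11982 genes. The glucose group was adult females of the w1118 genotype, labelled as 10 days old and held for 10 days at 25 °C on holidic food enriched with glucose (100 g/L, whether added or final is not stated). The unmodified group was w1118 females of the same age and temperature on the same food without the enrichment. Holidic food is a chemically defined synthetic diet, and before eclosion all flies had been reared on cornmeal food. Every sample was RNA pooled from 10 dissected midguts, so that differences between individual flies are averaged out. The other 6 arrays hold the same diets in whole flies, 5 per sample, and serve here only for comparison. Signals are log2 values, and each difference is glucose minus unmodified on that scale. In such bulk tissue, fewer cells of a type and less RNA per cell cannot be told apart.

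The adult fly midgut digests and absorbs food. Enterocytes secrete amylases, maltases, lipases and serine proteases into the lumen and take up the sugars, lipids and peptides released, while copper cells acidify the middle region, enteroendocrine cells release peptide hormones, and progenitor cells replace all of these. Dietary sugar is known to repress genes of digestive enzymes in the fly midgut, amylase among them, and the Mondo and sugarbabe factors are part of the transcriptional response to sugar.

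The arrays carried the transcripts of the tissue they were labelled with. The enterocyte trypsin genes alphaTry and betaTry stood at 13.7 to 13.9 on every midgut array, and the enteroendocrine gene NPF, the progenitor gene esg and the copper cell gene Vha100-4 had means of 7.18, 7.57 and 9.27 on glucose, against 7.09, 7.77 and 8.89 on the unmodified diet. The enteroendocrine genes AstC and pros differed by -0.20 and -0.23, pros with no overlap between diets. The enterocyte gene nub differed by -0.34, with overlap. None of these markers was called. Array medians lay between 3.43 and 3.47, and correlations across probe sets were 0.9887 to 0.9939 within a diet and 0.9862 to 0.9949 between diets. Germline transcripts were uneven: osk stood at 9.55, 4.97 and 3.42 on glucose, against 5.64, 1.80 and 2.70 on the unmodified diet, so replicate 1 was the highest on each diet. Of the 10 germline genes measured, the median level per array lay between 2.51 and 4.67 on glucose and between 2.23 and 3.58 on the unmodified diet, with vas at 1.79 to 2.13 throughout. Array controls differed too. All 14 probe sets of the bacterial bioB, bioC and bioD spikes were higher on glucose in the 3 same-numbered pairs, by 0.17 to 0.31 on average, as were all 9 of the lys, phe and dap spikes, by 0.44 to 0.90. The 4 probe sets of the cre spike were higher on glucose by 0.04 to 0.10 on average, 2 of them in all 3 pairs. The 3 probe sets of the thr spike lay between -0.37 and 0.09. The difference between 3' and 5' probe sets averaged 2.62 on glucose and 2.13 on the unmodified diet for actin, and 1.62 on glucose and 1.37 on the unmodified diet for GAPDH, both higher in all 3 pairs. For eIF-4a it averaged 2.32 on glucose and 2.01 on the unmodified diet and for Act5C 2.96 on glucose and 2.75 on the unmodified diet, both higher in 2 of 3 pairs. The part of these differences in the results below was not tested. The labels do not state whether a group's replicates were separate cultures, and the p-values cover the spread between these samples only.

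Same-numbered glucose and unmodified arrays deviated from their group means together, with correlations across probe sets of 0.39, 0.31 and 0.36, against -0.27 to -0.05 for arrays with different numbers. Deviations sum to 0 within a diet, so same-numbered values above 0 push the others below it, and these correlations are not independent. What a number stands for is not labelled, and the pairing therefore comes from the data. The midgut diet effect was tested with limma without the replicate number, and also in a paired fit with the number as a block. The unpaired fit was the planned test, and the block was an alternative to it. Apart from CG1648, no gene was called without the block, so the calls below are those of the paired fit. The pairing was read from these same arrays, and the paired adjusted p-values do not allow for that choice. An SE is from the unpaired fit unless the paired fit is named beside it.

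Among the genes that fell in the midgut on glucose were Amyrel and a pair of maltases, a lipase, a protease, a sterol carrier and a pair of metallothioneins, while the genes that rose all carry CG numbers for names. Without the block 1 of 18769 probe sets, or 0.00533%, had a limma adjusted p under 0.05, which was CG1648, higher on glucose, and 1164, or 6.2%, had an unadjusted p under 0.05. In the paired fit 24 were called, or 0.128%, of which 10 (0.0533%) were higher and 14 (0.0746%) lower. These carried 9 genes that rose and 12 that fell, while 2 probe sets with several genes and 1 with no gene listed are not named. In 21 of the 24 the 3 arrays of each diet did not overlap, against 6.36% of all probe sets that were separated upwards and 5.34% downwards. The 24 were picked on these same arrays, so this count is not separate evidence. The sizes of the 24 ran from 0.87 to 1.87. With pair 1, 2 or 3 left out, the paired fit called 38, 10 and 36 probe sets, of which 16, 7 and 15 were among the 24. The sign of the 24 could not change here, because each had the same sign in all 3 pairs. The plot of difference against signal level shows that the falls included some of the brightest transcripts of the array, whereas most of the rises were of dim to middling ones.

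**Figure D1:**
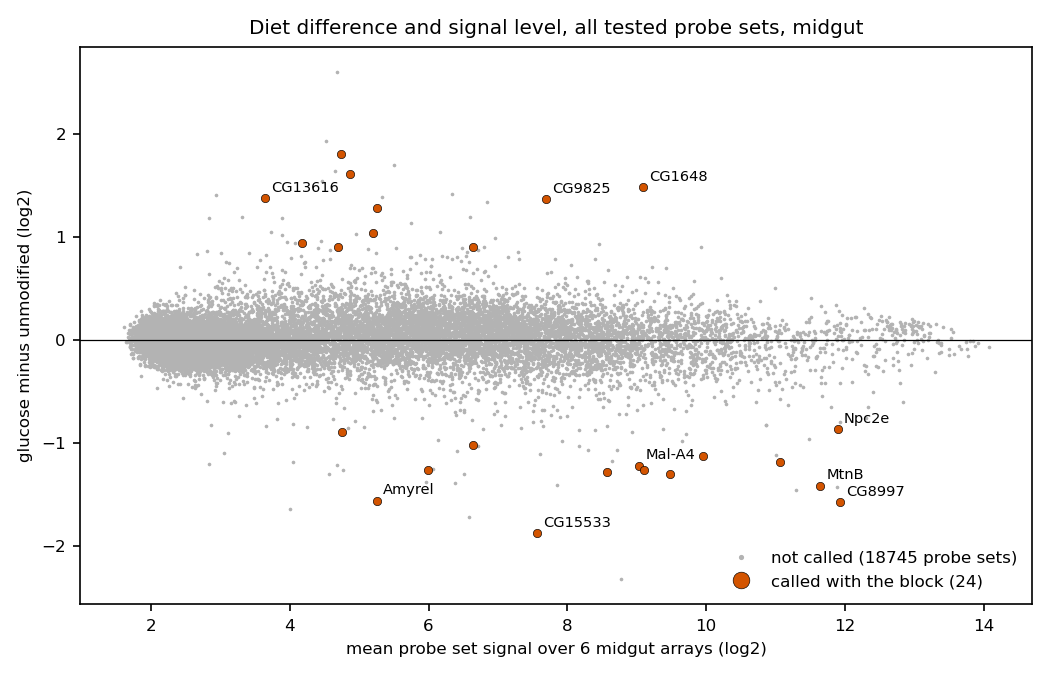
Difference between diets (glucose minus unmodified, log2, y axis) against the mean log2 signal over the 6 midgut arrays (x axis), 1 point for each of 18769 probe sets, with the 24 called in the paired fit in orange. Npc2e, MtnB and CG8997 lie at the bright end below 0, and CG1648 is the brightest called probe set above 0.

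**Figure D2:**
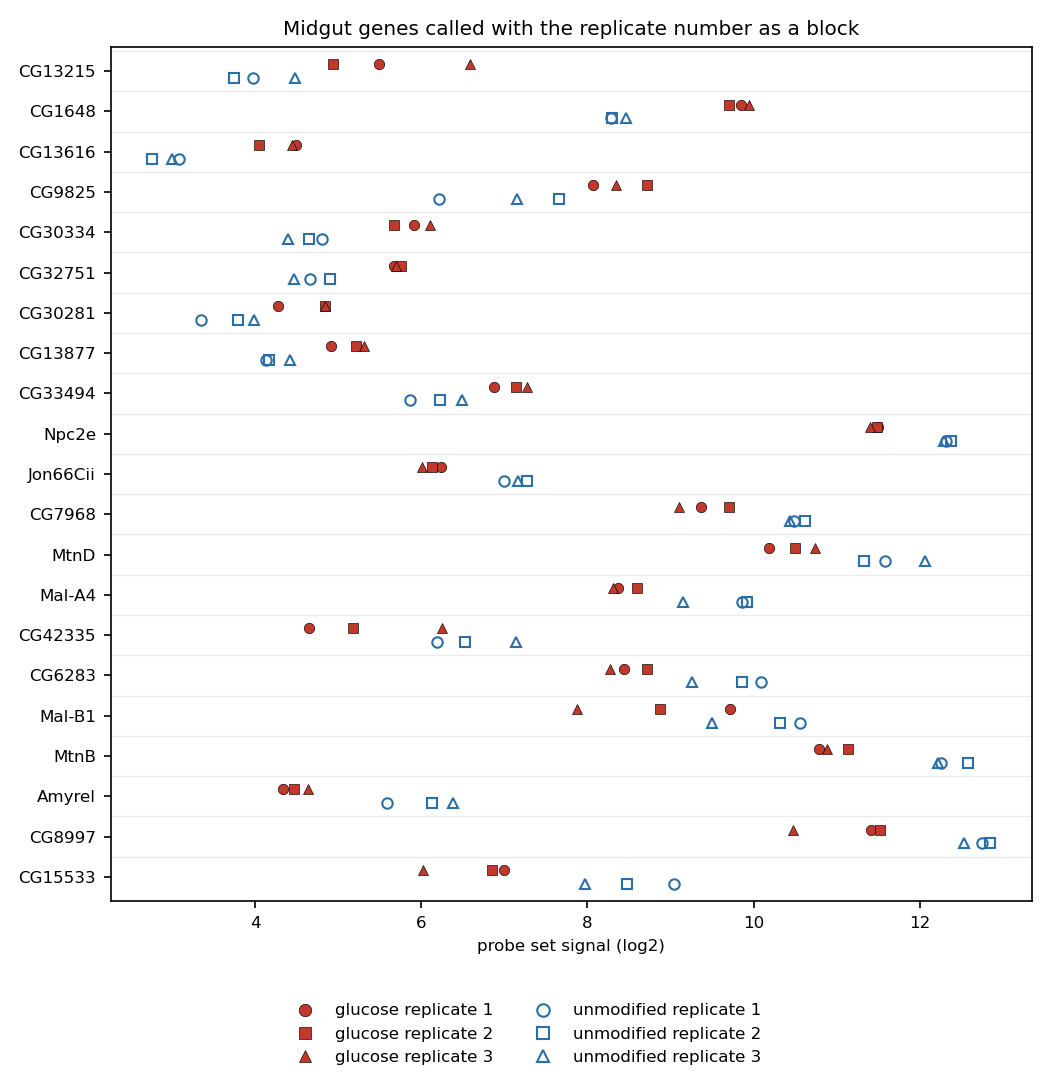
Log2 signal (x axis) on each midgut array for the 21 named genes called in the paired fit, with glucose arrays in filled red above the unmodified arrays in open blue, and the symbol shape giving the replicate number. The diets do not overlap except for CG42335 and Mal-B1, where each glucose array still lies below the unmodified array of the same number.

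Among enzymes that split starch and its breakdown products, Amyrel and 2 maltase genes fell on glucose. Amyrel, an amylase-related gene, had log2 signals of 4.33, 4.47 and 4.63 on glucose, against 5.59, 6.13 and 6.38 on the unmodified diet. All glucose arrays lay below all unmodified ones, a 2.95-fold difference of means. The difference was -1.56, with an SE of 0.12 and a limma adjusted p of 0.0137 in the paired fit, against an adjusted p of 0.0941 without the block. It was the 1 measured member of the amylase list.

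All 11 listed maltase genes, which encode alpha-glucosidases releasing glucose from maltose and sucrose, were measured. Mal-A4 stood at 8.37, 8.59 and 8.30 on glucose, against 9.86, 9.92 and 9.14 on the unmodified diet, with no overlap. It fell by 1.22 (SE 0.14, limma adjusted p 0.0377 in the paired fit and 0.317 without the block). Mal-B1 had 9.72, 8.87 and 7.87 on glucose, against 10.6, 10.3 and 9.49 on the unmodified diet. Here the diets overlapped, since glucose replicate 1 lay above unmodified replicate 3, while the 3 pairs differed by -0.84, -1.45 and -1.62. In the paired fit Mal-B1 fell by 1.30 (SE 0.16, limma adjusted p 0.0484), against an adjusted p of 0.757 without the block.

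The other maltase genes did not pass. Mal-A3, tobi, Mal-A6, Mal-A7 and Mal-A2 stood at -0.86, -0.82, -0.65, -0.55 and -0.44, Mal-A8 and Mal-A1 at -0.27 and -0.24, and Mal-B2 and Mal-A5 at 0.20 and 0.57. tobi, an alpha-glucosidase gene regulated by insulin and glucagon-like signals, was highest in unmodified replicate 1, at 11.7. Altogether 4 of 11 maltase genes lay lower on glucose with no overlap and 0 higher, against 5.45% and 6.88% of all genes and 4.71% and 8.65% of those above the array median, and 8 were lower in all 3 pairs, against 15.3%. Their median was -0.55, against 0.01 over all genes measured. The median was -0.34 without unmodified replicate 1 and -0.27 without both replicate 1 arrays.

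The lysosomal alpha-mannosidase genes, which trim mannose from glycans, lay below 0 in 6 of 6 cases with a median of -0.54, but no member was called. LManVI had 10.2, 10.5 and 10.6 on glucose, against 11.5, 10.9 and 10.7 on the unmodified diet, a difference of -0.60 (SE 0.22). LManIII had 7.84, 8.78 and 8.70 on glucose, against 11.0, 9.28 and 8.70 on the unmodified diet. Much of the shift thus sat in the first pair, and the list's median was -1.57, -0.34 and -0.03 in pairs 1, 2 and 3. Without both replicate 1 arrays it was -0.16.

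**Figure D3:**
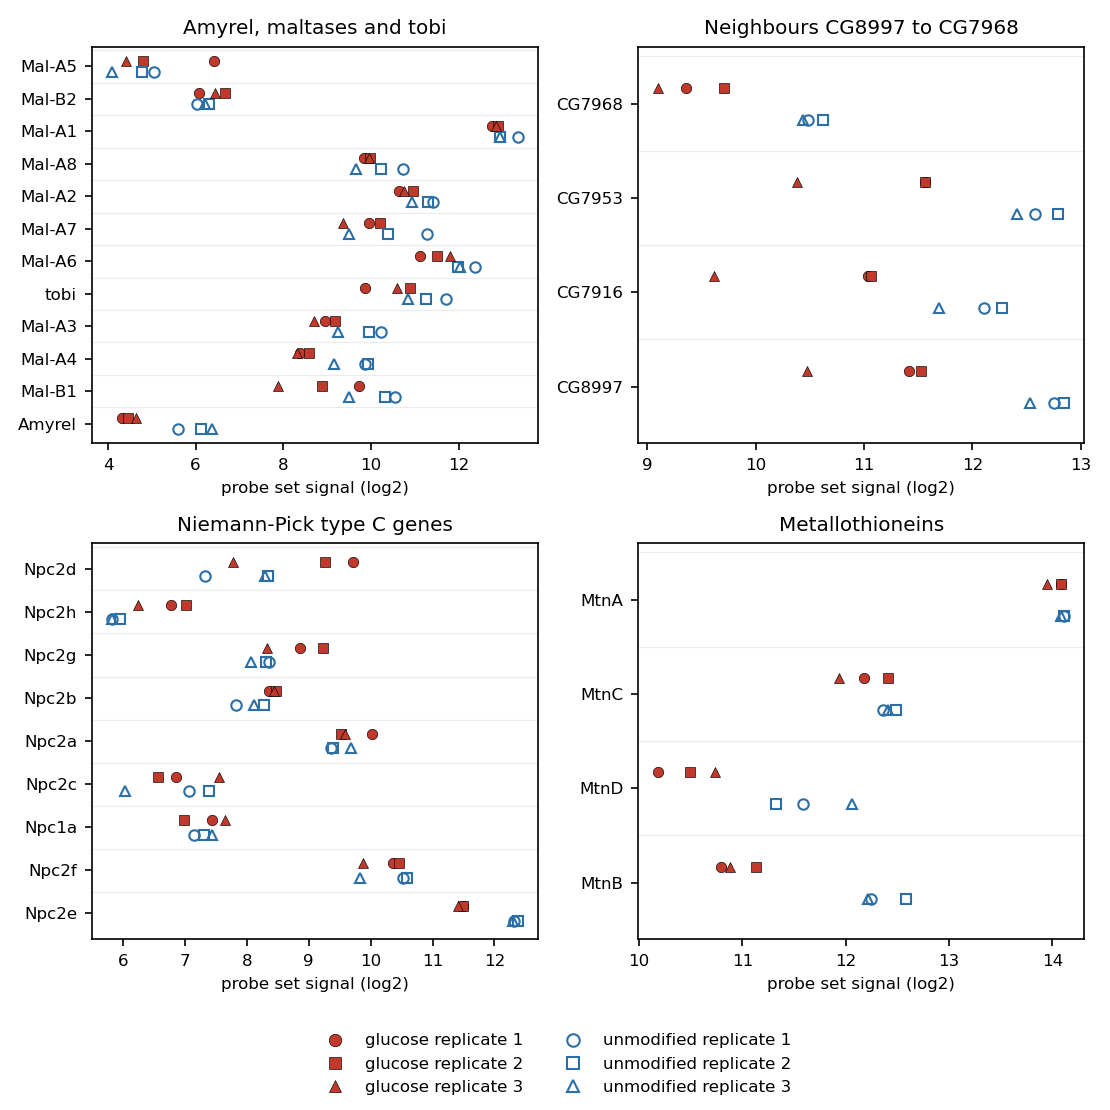
Log2 signals (x axis) on each midgut array for 4 gene groups, with glucose in filled red above unmodified in open blue and the symbol shape giving the replicate number. Within the maltases, the Niemann-Pick genes and the metallothioneins the members differed in direction or size, whereas the 4 adjacent genes from CG8997 to CG7968 were all lower on glucose.

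Among lipid enzymes stood the gene with the largest difference of those separated by diet. CG8093, a lipase-family gene, had 7.02, 7.76 and 8.05 on glucose, against 10.3, 9.83 and 9.62 on the unmodified diet. The groups did not overlap and the means differed by -2.32 (SE 0.28), but the limma adjusted p was 0.0768 without the block and 0.0558 with it, so CG8093 was not called. CG6283, of the pancreatic-type lipase family, had 8.44, 8.72 and 8.28 on glucose, against 10.1, 9.86 and 9.26 on the unmodified diet. CG6283 fell by 1.26 in the paired fit (SE 0.14, limma adjusted p 0.0377, against 0.317 without the block), a 2.39-fold difference with no overlap.

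Other lipase genes showed smaller differences. Lip3, a lipase gene, stood at -0.83 (SE 0.17) from low signals of 3.03, 3.33 and 3.39 on glucose, against 3.78, 4.35 and 4.10 on the unmodified diet. The mag gene (magro), which encodes a secreted midgut lipase, stood at 0.01 (SE 0.28), and the bright CG6295 at -0.11 (SE 0.16). In all, 5 of 13 lipase genes lay lower with no overlap and 1 higher, the dim CG18301 at 0.28, against 5.45% and 6.88% of all genes, and the median was -0.17.

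CG15533, related to acid sphingomyelinases, which cleave sphingomyelin, had 6.996, 6.85 and 6.02 on glucose, against 9.04, 8.47 and 7.97 on the unmodified diet. It fell by 1.87, the largest fall among the called genes (SE 0.12, limma adjusted p 0.00772 in the paired fit, 0.317 without the block). CG15534, its neighbour and relative, stood at -0.63 (SE 0.13) with no overlap and was not called.

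The Niemann-Pick type C genes encode sterol carriers, and members differed in direction. Npc2e had 11.5, 11.5 and 11.4 on glucose, against 12.3, 12.4 and 12.3 on the unmodified diet. The 3 pairs differed by -0.82, -0.89 and -0.89, and Npc2e fell by 0.87 (SE 0.09, limma adjusted p 0.0377 in the paired fit, 0.0721 without the block). Npc2h, by contrast, had 6.77, 7.02 and 6.24 on glucose, against 5.82, 5.95 and 5.82 on the unmodified diet. That was a separation in the opposite direction, at 0.81 (SE 0.19), which was not called (limma adjusted p 0.142 in the paired fit). Npc2b at 0.35 and Npc2g at 0.56 were higher in all 3 pairs, and 7 of 9 members had differences above 0, with a median of 0.23, or 0.44 without unmodified replicate 2. Npc2d, next to Npc2e in gene order, had 9.72, 9.27 and 7.79 on glucose, against 7.33, 8.34 and 8.30 on the unmodified diet, which overlapped.

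Serine protease genes had medians near 0, with 1 gene called. Jon66Cii, of the Jonah family of chymotrypsin-like gut proteases, had 6.24, 6.13 and 6.01 on glucose, against 6.998, 7.27 and 7.16 on the unmodified diet. It fell by 1.02 with no overlap (SE 0.12, limma adjusted p 0.0377 in the paired fit, 0.0750 without the block). Its neighbour Jon66Ci stood at -0.63 (SE 0.16) with no overlap, and Jon99Ci at -1.12 (SE 0.37) with glucose replicate 2 inside the unmodified range. Of 13 Jonah genes 12 had differences below 0 and 4 lay lower with no overlap, against 5.45% of all genes, but the median was -0.15, and -0.31 without glucose replicate 2. The brightest members, Jon65Aiii and Jon65Aiv, stood at 13.78 to 13.96 on every array, close to the highest signal of any array, 14.1, and differed by -0.01 and -0.06. CG18179, a serine protease gene outside the list, had 5.55, 6.15 and 5.87 on glucose, against 7.76, 7.19 and 6.52 on the unmodified diet, a difference of -1.30 (SE 0.30) that was not called.

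The trypsin genes went both ways, with iotaTry at 0.41 (SE 0.13) and etaTry at -0.35 (SE 0.13), each with no overlap. Their median over 9 genes was -0.03, and 3 lay lower and 1 higher with no overlap, against 5.45% and 6.88% of all genes. That median was the value of betaTry, at 13.86 to 13.95 on every midgut array and so close to the highest signal, 14.1.

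Metallothioneins, small cysteine-rich proteins that bind copper and other metals, differed among themselves in size. Of 4 measured genes 2 were called, against 0.128% of all probe sets. With no overlap 2 lay lower and 0 higher, against 5.45% and 6.88% of all genes. All 4 were lower in all 3 pairs, against 15.3%. MtnB had 10.8, 11.1 and 10.9 on glucose, against 12.2, 12.6 and 12.2 on the unmodified diet. All glucose arrays were lower, by 1.33 to 1.46 within pairs as the plot of gene groups shows. MtnB fell by 1.41, or 2.66-fold (SE 0.10, limma adjusted p 0.00772 in the paired fit, 0.0721 without the block). MtnD had 10.2, 10.5 and 10.7 on glucose, against 11.6, 11.3 and 12.1 on the unmodified diet, and fell by 1.18 (SE 0.13, limma adjusted p 0.0377 in the paired fit, 0.336 without the block). MtnC stood at -0.25 (SE 0.13), and MtnA, at 13.95 to 14.12 on all arrays and so at the top of the scale, at -0.07 (SE 0.09).

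Genes of iron, copper and zinc handling were mostly on the same side, 11 of 13 below 0 with a median of -0.14, or -0.28 without unmodified replicate 1, but by the brightest probe set of each none was separated by diet. Tsf1, the iron-binding transferrin, had the largest difference at -1.72 (SE 0.47). Its signals were 5.25, 6.84 and 5.07 on glucose, against 7.95, 6.84 and 7.52 on the unmodified diet, so that the second pair differed by 0.003 and the other 2 by over 2 on the log2 scale. A dimmer probe set of Tsf1 was separated by diet, at -1.27 (SE 0.38).

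The 4 genes CG8997, CG7916, CG7953 and CG7968 follow each other in the RefSeq gene order and were all bright. CG8997 had 11.4, 11.5 and 10.5 on glucose, against 12.8, 12.8 and 12.5 on the unmodified diet. CG7916 had 11.0, 11.1 and 9.62 on glucose, against 12.1, 12.3 and 11.7 on the unmodified diet. In both, glucose replicate 3 was the lowest array and the diets did not overlap.

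CG7953 and CG7968 were likewise separated, the first with its lowest glucose array at 10.4 and the second at 9.10. CG8997 and CG7968 fell by 1.57 (SE 0.16) and 1.13 (SE 0.11), each with a limma adjusted p of 0.0377 in the paired fit, against 0.317 and 0.153 without the block. CG7916 at -1.45 (paired SE 0.19) and CG7953 at -1.42 (paired SE 0.19) missed the threshold, with paired adjusted p-values of 0.0558 and 0.0596. The measured genes next to the group on one side, CG33307, and on the other, Ance, a secreted peptidase gene, had differences of 0.20 and -0.02. These flanking genes were looked up after the values had been seen.

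Of the other genes that fell, CG42335 had 4.65, 5.17 and 6.25 on glucose, against 6.19, 6.52 and 7.13 on the unmodified diet. The groups overlapped and the pairs differed by -1.54, -1.35 and -0.88, with a limma adjusted p of 0.0377 in the paired fit and 0.713 without the block. A second, brighter probe set of CG42335 stood at -0.68 (SE 0.21) and was not called. Among the 15 genes with the largest separated differences downwards, CG13813 at -1.64 (-0.98 without unmodified replicate 2), CG14957 at -1.38 and CG14456 at -1.21 were not called either.

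CG1648 was the gene that passed in both fits. It had 9.84, 9.70 and 9.94 on glucose, against 8.28, 8.29 and 8.46 on the unmodified diet, where the widest spread within a diet was far smaller than the gap between diets. CG1648 rose by 1.49, or 2.80-fold (limma SE 0.11 and adjusted p 0.0157 without the block, 0.00772 with it). Leaving out any 1 array of the 6 kept its difference between 1.43 and 1.55 but ended the call of the unpaired fit, with adjusted p-values of 0.0596 to 0.207.

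Next to it in signal among the genes that rose was CG9825, a transporter gene of the SLC17 type in the major facilitator family. CG9825 had 8.06, 8.72 and 8.35 on glucose, against 6.21, 7.65 and 7.16 on the unmodified diet. It rose by 1.37 in the paired fit (SE 0.16, limma adjusted p 0.0390) and had an adjusted p of 0.631 without the block. The diets did not overlap, and unmodified replicate 1 was the lowest array.

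CG13616 and CG13215 were low in the midgut on the unmodified diet. CG13616 had 4.49, 4.05 and 4.44 on glucose, against 3.08, 2.77 and 3.002 on the unmodified diet. The unmodified values lay below the median signal of the arrays, 3.45, and the glucose values above it. It rose by 1.38 (SE 0.10, limma adjusted p 0.00772 in the paired fit, 0.0721 without the block). CG13215 had 5.50, 4.94 and 6.58 on glucose, against 3.97, 3.74 and 4.48 on the unmodified diet, and rose by 1.61 (SE 0.17, limma adjusted p 0.0377 in the paired fit, 0.591 without the block). The remaining genes that rose were CG30334 by 1.28, CG32751 by 1.04, CG30281 by 0.94, CG13877 by 0.91 and CG33494 by 0.90, all with separated arrays and limma adjusted p-values of 0.0377 in the paired fit, against 0.0768 to 0.547 without the block.

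Some large upward differences were not called. CG34227, which lies 4 genes from CG13215 in gene order, stood at 1.71 (SE 0.31) and TwdlT, a cuticular protein gene of the Tweedle family, at 1.65 (SE 0.25). The ct gene, which encodes the homeodomain factor Cut, a marker of copper cells in the midgut, had 5.78, 5.39 and 5.25 on glucose, against 4.09, 4.64 and 4.59 on the unmodified diet. This difference of 1.03 (SE 0.19) was separated by diet but had a paired adjusted p of 0.156 in limma. CG15394 and CG4650 both stood at 1.05.

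Most regulators of the sugar response had positive differences, and none was called. The sug gene (sugarbabe), a sugar-induced transcription factor, had 9.39, 10.2 and 9.72 on glucose, against 8.78, 9.29 and 9.15 on the unmodified diet. The diets were separated at a difference of 0.70 (SE 0.22), and the paired limma adjusted p was 0.122. The Mondo partner gene bigmax stood at 0.38, the activin-like ligand gene daw at 0.37, cbt (cabut), a sugar-responsive transcription factor gene, at 0.28, Mondo at 0.16 and the activin gene Actbeta at -0.10. Thus 5 of 6 were higher in all 3 pairs, against 19.8% of all genes and 25.1% of those above the array median. With no overlap 3 lay higher, against 6.88% and 8.65%, and the list's median was 0.33.

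Metabolic enzyme genes lay near 0. Lipogenesis genes had a median of -0.03 over 10 genes, and only the fatty acid synthase gene FASN1 was separated, at 0.36 (SE 0.13), with 9.91, 10.3 and 10.1 on glucose, against 9.72, 9.87 and 9.70 on the unmodified diet. The differences of ACC, ATPCL and Desat1, for acetyl-CoA carboxylase, ATP-citrate lyase and a fatty acid desaturase, were 0.11, -0.03 and -0.03. Glycolysis genes had a median of 0.07 over 10 genes, with Pglym78, a phosphoglycerate mutase gene, at 0.29 and the hexokinase gene Hex-A at -0.31. Gluconeogenesis genes stood at 0.05 over 4 genes.

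Genes of fat mobilisation and oxidation had a median of -0.10 over 11 genes, with the perilipin gene Lsd-1 at 0.50 (SE 0.14) as the 1 separated member. Among 10 sugar transporter genes the median was 0.03, and nebu, at 8.39, 8.22 and 8.86 on glucose, against 9.46, 9.03 and 9.12 on the unmodified diet, was the 1 separated, at -0.72 (SE 0.19). No member of these lists was called in either fit.

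Glutathione transferases, which conjugate glutathione to reactive compounds, had more members below 0 than above it, none of them called. Of 34 genes 25 had differences below 0, and the median was -0.22, or -0.15 without unmodified replicate 1. With no overlap 7 lay lower and 0 higher, against 5.45% and 6.88% of all genes, and in all pairs 15 were lower and 3 higher, against 15.3% and 19.8%. GstD10 had 5.49, 5.89 and 6.24 on glucose, against 7.47, 6.34 and 7.04 on the unmodified diet, a difference of -1.08 (SE 0.29), and GstE7 stood at -0.54 (SE 0.13). Cytochrome P450 genes had a median of -0.05 over 83 genes, with 10 lower and 4 higher without overlap, against 5.45% and 6.88% of all genes. Among them Cyp49a1 stood at 0.88 (SE 0.21), Cyp9b2 at -0.59 (SE 0.14) and Cyp6g1, known for insecticide resistance, at -0.53 (SE 0.15). UDP-glycosyltransferase genes had a median of -0.11 over 35 genes.

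**Figure D4:**
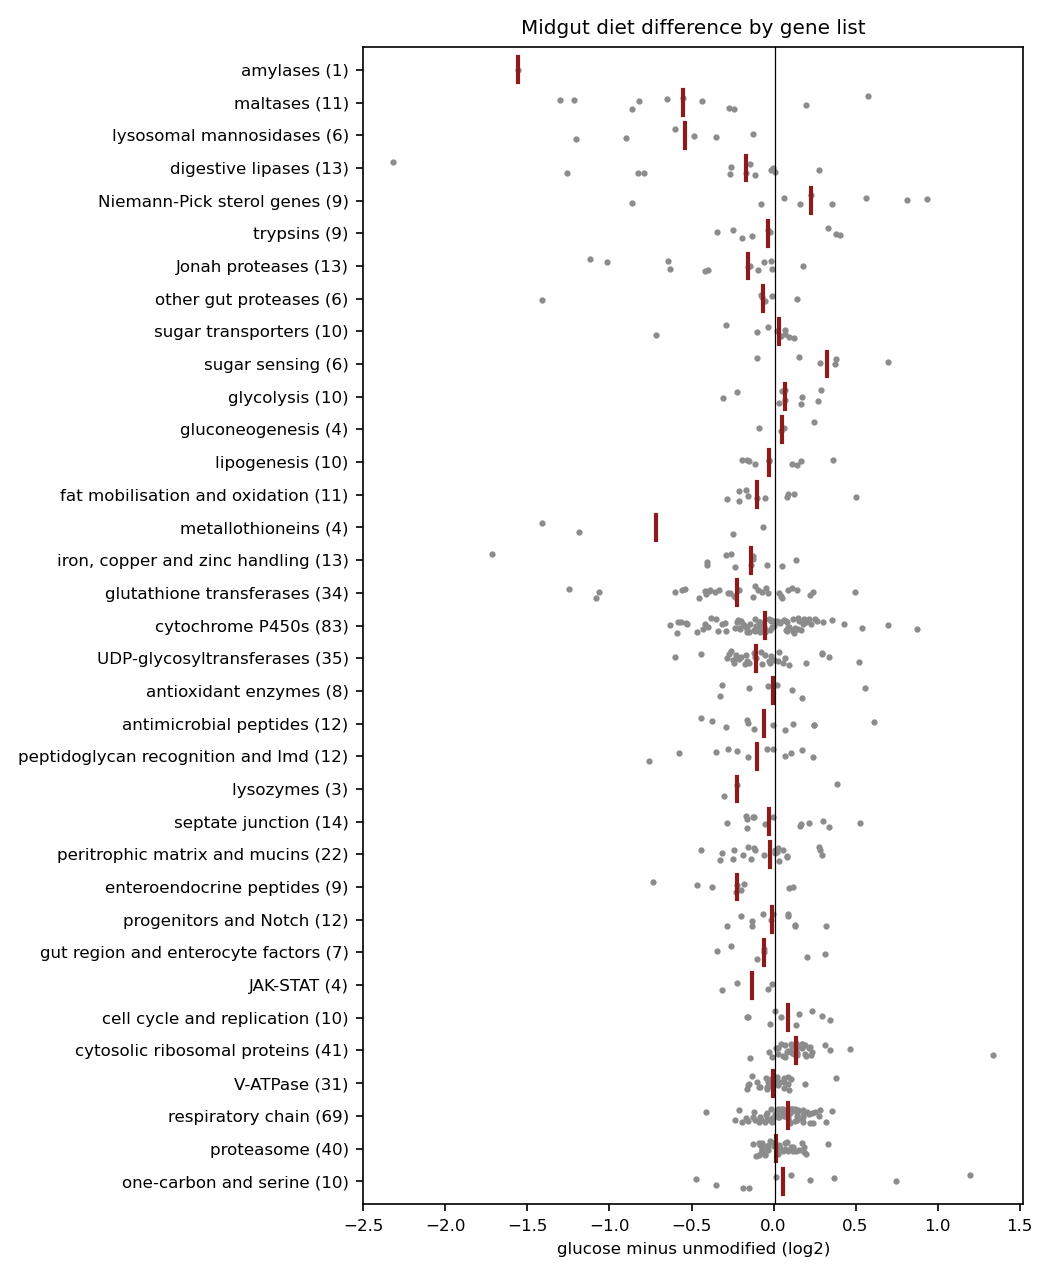
Difference between diets (glucose minus unmodified, log2, x axis) for every measured gene of 35 lists, 1 grey point a gene and a red bar at the list's median, with the number of measured genes in brackets. Medians of the amylase, maltase, mannosidase and metallothionein lists lie below -0.5, and those of most other lists lie within 0.25 of 0.

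No immune gene was called. PGRP-SC2, an amidase gene that breaks down peptidoglycan and dampens the Imd pathway, had 11.8, 12.1 and 11.9 on glucose, against 12.8, 12.7 and 12.5 on the unmodified diet. The diets were separated at -0.76 (SE 0.13), with a paired limma adjusted p of 0.127. The other peptidoglycan recognition and Imd genes brought the median over 12 genes to -0.10, the 12 antimicrobial peptide genes stood at a median of -0.06, and the 3 measured lysozymes at -0.22. Irc, the immune-regulated catalase of the gut, stood at 0.56 (SE 0.14) with no overlap.

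Genes of septate junctions, which seal the spaces between gut cells, had a median of -0.03 over 14 genes. Nrg at 0.53 (SE 0.13) and bou at 0.34 (SE 0.14) were separated upwards and none downwards, against 6.88% and 5.45% of all genes. Peritrophic matrix and mucin genes, for the lining of the gut lumen, stood at -0.02 over 22 genes. Enteroendocrine peptide genes had a median of -0.22 over 9 genes, or -0.35 without unmodified replicate 3 and -0.13 without unmodified replicate 2, with 3 separated downwards, against 5.45% of all genes. The nutrient-responsive peptide hormone gene CCHa2 had 7.37, 7.64 and 7.85 on glucose, against 8.27, 8.79 and 8.02 on the unmodified diet, a difference of -0.74 (SE 0.21), and sNPF was near background at 1.75 to 2.66.

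Progenitor and Notch genes had a median of -0.01 over 12 genes, with esg at -0.20 (SE 0.17), and factors of gut regions and enterocytes one of -0.06 over 7 genes, with the homeodomain factor gene Ptx1 at 0.31 (SE 0.10). Proton pump genes of the V-ATPase had a median of 0.00 over 31 genes and proteasome genes one of 0.02 over 40. Cytosolic ribosomal protein genes stood at 0.14 over 41 measured genes, of which 22 were separated upwards, against 8.65% of all genes above the array median, and 0 downwards. No ribosomal protein gene was called, RpL17 at 0.31 (SE 0.11) having the smallest p, and the median was 0.10 without both replicate 1 arrays. In the same arrays the bioB, bioC and bioD spikes had a median difference of 0.26, and the cre spike one of 0.06. Cell cycle genes had a median of 0.09 over 10 genes, which was -0.27 without glucose replicate 1.

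Markers of other tissues were uneven between arrays. Germline genes had a median difference of 0.37, which was -0.18 without glucose replicate 1. In that array orb, zpg and Marf1 stood at 6.32, 5.80 and 5.62, against at most 2.81 in the other glucose arrays, and unmodified replicate 1 had them at 2.81, 4.52 and 4.35. Chorion genes were high in unmodified replicate 3 instead, with Cp15 at 6.82, Cp36 at 6.66 and Cp38 at 5.80, against at most 4.64 in the other midgut arrays. The vitelline membrane gene Vm26Aa was on the other side, at 8.23, 5.42 and 4.43 on glucose, against 4.40, 4.54 and 4.99 on the unmodified diet. The germline gene swa was at 4.52 in glucose replicate 1 and 3.63 in unmodified replicate 1, against at most 2.67 elsewhere, and the flight muscle actin gene Act88F at 4.74 in glucose replicate 2, against at most 3.21. The 15 eggshell and yolk genes had median levels of 3.73 to 4.02 on glucose and 4.04 to 4.99 on the unmodified diet, and 4 of them were separated downwards, against 5.45% of all genes. The bright yolk protein genes Yp2 and Yp3 stood at -0.54 (SE 0.13) and -0.42 (SE 0.12), with no overlap.

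Of 4 fat body genes, apolpp at -0.41 and Lsp2 at -0.57 were separated downwards and Apoltp at 0.46 upwards, against 5.45% and 6.88% of all genes. The 4 Malpighian tubule genes had median levels of 7.85 to 8.73 on glucose and 8.52 to 8.76 on the unmodified diet. Of these, Lkr at -0.76 and Irk3 at -0.48 were separated downwards, against 5.45% of all genes. Photoreceptor genes had median levels of 2.42 to 2.67 on the 6 arrays, and neuron genes 3.20 to 3.69. None of these markers was called in either fit, and their part in the differences of the digestive genes was not tested.

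Whole flies on the same diets offered a comparison on separate arrays, although a whole fly includes its midgut. All 24 probe sets called in the paired midgut fit had the same sign in whole flies, where 49.5% of all probe sets agreed in sign between the tissues. In whole flies 8 of the 24 were called without a block, against 3.11% of all probe sets. CG1648 at 1.49 in midgut and 1.65 in whole fly, CG9825 at 1.37 and 1.63, and CG6283 at -1.26 and -1.27 had similar sizes, whereas Amyrel at -1.56 and -0.44, CG13616 at 1.38 and 0.13, and CG7968 at -1.13 and -0.23 had larger ones in the midgut. For 18 of the 24 the size was larger in the midgut. The 24 were chosen by their midgut difference, which by itself favours larger sizes there. For CG1648 the diet effect in midgut minus that in whole fly was -0.17 (SE 0.26). No difference between tissues was called for any of the 24 in the fit over 12 arrays, the smallest limma adjusted p being 0.101 for CG13616.

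The 15 largest separated genes in each direction also had the sign of the midgut in whole flies, 15 of 15 lower and 15 of 15 higher. CG8093 was -2.32 in midgut and -2.04 in whole fly, where it was called (limma adjusted p 0.0371). TwdlT, at 1.65 in midgut and 0.14 in whole fly, and ct, at 1.03 and 0.10, had smaller differences in whole flies. These genes, too, were chosen by their midgut difference. The maltases had medians of -0.55 in midgut and -0.35 in whole fly, the trypsins -0.03 and 0.76, and the sugar-sensing genes 0.33 and 0.67. For the trypsins the midgut median was that of betaTry, near the top of the scale there. In whole flies betaTry had means of 12.8 on glucose and 12.9 on the unmodified diet. Over all probe sets the diet effect differed between the tissues in 8 cases, or 0.0426%, without a block.

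**Figure D5:**
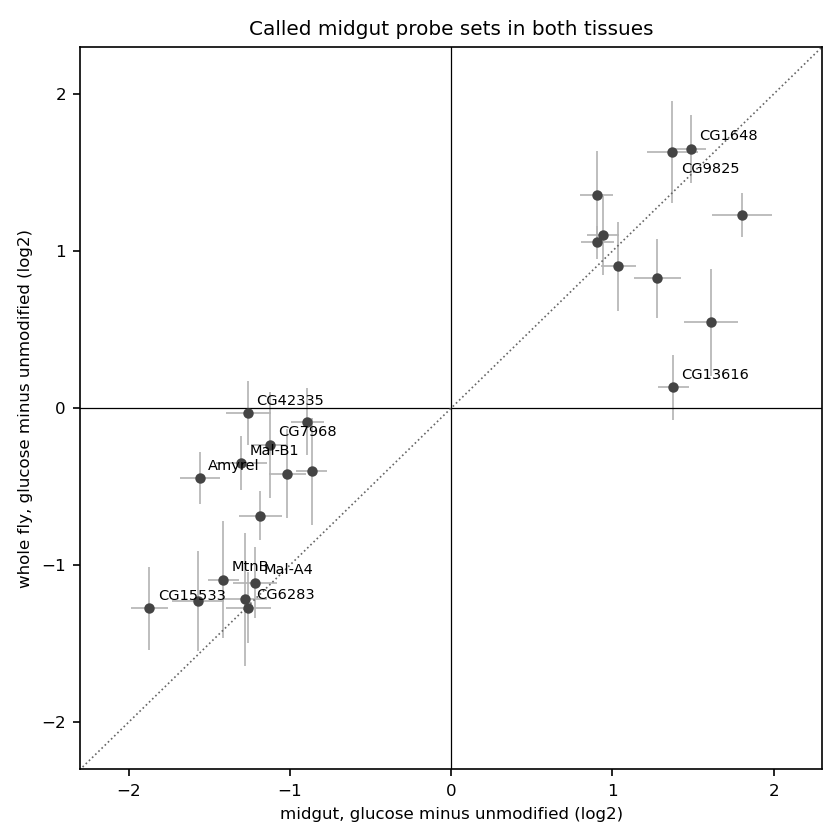
Difference between diets (glucose minus unmodified, log2) in midgut (x axis) against that in whole fly (y axis) for the 24 probe sets called in the paired midgut fit, with bars of 1 SE from the paired midgut fit and the unpaired whole-fly fit, and a dotted line where both would be equal. All points have the same sign in both tissues, and 18 are larger in midgut, Amyrel and CG13616 among them. The 24 were chosen by their midgut difference, which by itself favours larger sizes there.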

How the data were processed

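Total RNA from 10 midguts or 5 flies per sample was labelled with biotin and hybridised to Affymetrix 3' arrays, per the labels' protocols. The deposited table holds 1 log2 signal per probe set and array, made by the authors with Affymetrix Expression Console per the submitters' processing notes. The version of that program, its summarisation method and any normalization across tissues were not stated. That the scale is log2 was judged from the range of the values, 1.44 to 14.1. The table has 18952 probe sets, of which 183 controls were left out. Gene symbols come from the platform annotation (402 probe sets with several genes and 4720 with none listed stay unnamed). Gene order comes from the RefSeq gene table, in which 103 identifiers are absent, and no coordinates or sequences were used.

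For the midgut, limma 3.58.1 (lmFit and eBayes, under R 4.3.3) was run on the 6 arrays, with Benjamini-Hochberg adjustment over 18769 probe sets and a threshold of 0.05. The difference between tissues used all 12 arrays. The fits were tested on simulated data without a replicate effect, which cannot check the pairing. An exact permutation test of 3 against 3 arrays cannot go below 0.1, and sign flips of 3 pairs not below 0.25. Same-numbered midgut arrays all correlated above 0.1 in their deviations, so blocked values are printed beside calls they change. At most 0.0213% of values were identical in any 2 arrays of a group, so none was counted as a duplicate. Precision is limited by having 3 arrays per diet.

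A gene of a list was represented by its brightest midgut probe set. Lists have no test, only counts and medians. Named were all called probe sets with 1 gene, the 15 largest separated differences each way (unadjusted p under 0.05, above the array median), members of the digestive, sterol, metallothionein, sugar-sensing and lipogenesis lists, up to 5 members with the smallest p of other lists, and markers with a range over 2 within a diet. The comparison, its lists and these rules were chosen with earlier results of these data known. Alternatives were leaving out the 40% dimmest probe sets, another variance prior, median centring, quantile normalization, array weights, a fit over 12 arrays, the replicate block and leaving out arrays. Leaving out both replicate 1 arrays was added after seeing the data.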

Additional observations from a re-analysis of the deposited data

Results flagged for a closer look

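Without the block, the diet effect differed between midgut and whole fly for 8 probe sets in the limma fit over 12 arrays. Each had an adjusted p that rounds to the threshold of 0.05. As midgut minus whole fly the differences were 1.52 for cno (0.15 in midgut, -1.37 in whole fly), 1.25 for jing (0.25 in midgut, -0.99 in whole fly), 1.21 for CG2186 (0.04 in midgut, -1.17 in whole fly), 1.13 for ana3 (0.07 in midgut, -1.06 in whole fly), 1.06 for rec (0.10 in midgut, -0.95 in whole fly) and -1.02 for flap (-0.20 in midgut, 0.81 in whole fly). Both probe sets among the 8 that carry no single gene stood at 1.28 and 1.11. In all 8 the midgut difference was the smaller, and most of these genes were dim in the midgut, with flap, rec, jing and ana3 below 3.5 on every midgut array. A second probe set of cno stood at 0.03 and a second one of jing at 0.01. No explanation was tested.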

How the results depend on the processing

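For the midgut diet effect, 1 probe set, CG1648, was also called without the 40% dimmest probe sets and with median centring, quantile normalization or array weights. The count was 10 with a trended and robust prior, 6 in the fit over 12 arrays, and 24 with the replicate block, which takes up the pairing. Leaving out 1 array gave 0 calls each time in limma (860 to 2097 at an unadjusted p under 0.05), as did leaving out both replicate 1 arrays (0 calls, 781 unadjusted). The replicate block without replicate 1, 2 or 3 gave 38, 10 and 36 calls, of which 16, 7 and 15 were among the 24. All 24 kept an unadjusted limma p under 0.05 each time. Each refit reused pairs on which the 24 had been picked, so this count is not separate evidence. Their sign could not change, because each had the same sign in all 3 pairs. The 8 calls for the diet effect in midgut minus whole fly were 0 after removal of the dimmest probe sets (2255 unadjusted) or with the trended prior (2697 unadjusted), 8 with quantile normalization, 0 to 361 without 1 array (361 without whole fly glucose replicate 2), and 749 with the replicate block, which include CG13616, Amyrel and CG42335 of the 24 midgut calls (adjusted p 0.0218, 0.0363 and 0.0424), although same-numbered whole-fly arrays did not all correlate (0.20, 0.31 and -0.01).

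Over 35 named genes and 17 settings, 595 values in all, 0 reversed, 7 were no longer called, 74 became called and 514 stayed as they were. Genes whose arrays were separated by diet could not reverse when arrays were left out. Of 396 list medians 45 moved by more than their spread between pairs. The limits are 3 arrays a diet, a pairing inferred from the data, an unknown summarisation method, and signals near the floor or the top of the scale, where differences are compressed.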

Other observations

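One-carbon and serine metabolism genes, which handle methyl groups and folate-bound carbon, held some of the wider differences of the midgut, although none was called. Gnmt, the glycine N-methyltransferase that uses up S-adenosylmethionine, had 6.70, 7.83 and 7.07 on glucose, against 6.43, 5.44 and 6.14 on the unmodified diet, a difference of 1.20 (SE 0.33) with no overlap. Nmdmc, a mitochondrial folate enzyme gene, had 6.26, 5.79 and 6.54 on glucose, against 5.45, 5.10 and 5.81 on the unmodified diet. It was higher in all 3 pairs at 0.74, with a limma adjusted p of 0.0558 in the paired fit. Cbs, for cystathionine beta-synthase, stood at 0.37 and the serine synthesis phosphatase gene aay at -0.47, both separated by diet. The list's median was 0.06 over 10 genes, with 2 separated upwards and 1 downwards, against 6.88% and 5.45% of all genes.

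Probe sets of the same gene did not always give the same size. Those of ct stood at 1.03 (SE 0.19), 0.40 (SE 0.11) and, on a dim probe set, 0.01. Those of Tsf1 stood at -1.72, -1.27 and, on a dim probe set, -0.03.

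Among bright midgut genes outside the lists, CG18180, the neighbour of CG18179, had 11.5, 11.8 and 11.2 on glucose, against 12.4, 12.4 and 12.1 on the unmodified diet. Its difference was -0.80 (SE 0.10) with a limma adjusted p of 0.0558 in the paired fit. It was picked as a neighbour after the values were seen.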
